A study of Mus musculus with 25 samples.

Results

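The genes of cholesterol synthesis and the targets of SREBP2, the transcription factor that switches this pathway on, were followed across 25 mouse liver and tumor libraries. The set held 26 of the 48795 genes in the files. It was chosen by gene symbol from textbook roles, with earlier results of these data known, and each symbol matched a single gene. Of these, 19 encode enzymes of the path from acetyl-CoA to cholesterol or, for Ggps1, of a branch that leaves it, 4 encode SREBP2 and the proteins that hold or release it, and 3 take part in sterol uptake or transport. All 26 genes passed the filter on low counts.

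The samples came from male C57BL/6J mice, an inbred strain, and all were bulk tissue, so fewer cells of a type and less RNA per cell cannot be told apart. Whole liver made up 3 of the 5 groups. The nonDEN L-CD group (n = 3) was liver of uninjected mice on the control diet (CD), the nonDEN L-WD group (n = 4) was liver of uninjected mice on the western diet (WD), and the DEN L-CD group (n = 4) was liver of mice given diethylnitrosamine (DEN), a carcinogen that hepatocytes activate, and fed CD. DEN mice on WD gave 2 tissues, the dissected tumors (DEN T-WD, n = 6) and the liver around them (DEN PT-WD, n = 8). DEN was given once by intraperitoneal injection at 25 mg/kg at 2 weeks of age, the diets began at weaning, and tissue was taken at about 36 weeks, and at 39 weeks at the latest. Both diets contained cholesterol, in amounts that are not compared here, and WD was richer in lipid and sucrose. Tumors of DEN mice on CD were too small to be separated, so DEN L-CD liver may hold tumor tissue. Neither the labels nor the methods used here say whether each library came from its own mouse, whether tumor and peritumoral libraries share mice, or at what time of day tissue was taken, so p-values measure the spread between these libraries.

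Cholesterol is built in the endoplasmic reticulum from acetyl-CoA by way of mevalonate, the isoprenoids, squalene and lanosterol. When the membrane is poor in sterol, the escort protein SCAP carries SREBP2 to the Golgi, where proteases free the part that enters the nucleus and binds sterol response elements. When sterol is plentiful, INSIG1 and INSIG2 hold SCAP back and the target genes fall. Liver is a main site of this synthesis, and dietary cholesterol is known to lower it. Hepatocyte markers defined these tissues, with a summed TPM of 7 markers between 34000 and 126000 in each library.

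To show sequence elements near the start of these genes, the 180 bases upstream of 7 members are printed. Of these, 6 were higher in tumors than in the liver around them and Ebp was lower, so the choice was made with these values known. No link between the elements and expression was tested. The sequences are RefSeq's for GRCm38.p6, 5′ to 3′ on the strand of the gene, and end before the first base of the RefSeq and GENCODE transcripts. Capitals mark TCACNCCAC (a form of the sterol response element), the looser TCACNNCA, or the CCAAT box, which reads ATTGG on the other strand. Each TCACNCCAC is also a TCACNNCA. Mvk carries 5 CCAAT boxes here, Hmgcs1 carries 2 beside its sterol response element, and Cyp51 carries the looser element.
Hmgcs1, chr13:119690171-119690350, plus strand: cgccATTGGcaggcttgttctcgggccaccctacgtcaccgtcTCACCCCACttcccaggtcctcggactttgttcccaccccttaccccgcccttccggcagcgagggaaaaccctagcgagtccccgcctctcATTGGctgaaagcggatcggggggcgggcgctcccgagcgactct
Mvk, chr5:114444089-114444268, plus strand: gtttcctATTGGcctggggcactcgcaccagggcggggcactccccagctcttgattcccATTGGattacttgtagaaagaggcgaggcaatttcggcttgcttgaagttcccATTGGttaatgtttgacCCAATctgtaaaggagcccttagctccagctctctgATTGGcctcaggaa
Mvd, chr8:122443423-122443602, minus strand: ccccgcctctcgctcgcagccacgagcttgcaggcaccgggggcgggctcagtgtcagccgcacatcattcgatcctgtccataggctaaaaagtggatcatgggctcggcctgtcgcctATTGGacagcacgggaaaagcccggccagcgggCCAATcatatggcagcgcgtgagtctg
Lss, chr10:76531408-76531587, plus strand: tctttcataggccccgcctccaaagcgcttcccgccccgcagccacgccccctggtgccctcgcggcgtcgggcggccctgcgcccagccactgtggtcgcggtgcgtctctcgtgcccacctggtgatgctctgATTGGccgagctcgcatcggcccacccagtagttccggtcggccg
Cyp51, chr5:4104747-4104926, minus strand: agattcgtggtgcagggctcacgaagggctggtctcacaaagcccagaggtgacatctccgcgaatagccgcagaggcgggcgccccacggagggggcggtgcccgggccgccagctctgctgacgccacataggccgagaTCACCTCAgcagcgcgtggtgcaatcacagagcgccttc
Nsdhl, chrX:72918341-72918520, plus strand: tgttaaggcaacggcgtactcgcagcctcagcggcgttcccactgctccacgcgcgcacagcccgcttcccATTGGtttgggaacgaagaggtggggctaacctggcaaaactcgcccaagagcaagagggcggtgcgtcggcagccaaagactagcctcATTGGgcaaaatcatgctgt
Ebp, chrX:8193513-8193692, minus strand: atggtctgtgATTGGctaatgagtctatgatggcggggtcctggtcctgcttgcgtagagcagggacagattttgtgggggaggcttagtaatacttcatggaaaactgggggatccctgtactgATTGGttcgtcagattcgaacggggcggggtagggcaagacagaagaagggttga

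Of the 26 genes, 21 had a promoter entry. In the 250 bases before each start, on both strands, TCACNCCAC occurred in 1 of the 21 (Hmgcs1), against 1.22% of the 27025 genes with an entry. TCACNNCA occurred in 9 of 21, against 13.0% of genes. The CCAAT box occurred in 19 of 21, against 37.5% of genes, and the GC box GGGCGG occurred in 19 of 21, against 35.4%. The E-box CACGTG, which reads the same on both strands, occurred in 5 of 21, against 6.86%. These matches describe the letters only, since binding was not measured.

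Between genes, levels were compared as TPM, the share of transcripts corrected for length. In nonDEN L-CD liver the order was led by Insig2 at 190 ± 31.6 TPM (SD, n = 3), Ebp, the sterol isomerase, at 181 ± 16.4 TPM, Sc5d, the desaturase that introduces the C5 double bond, at 164 ± 27.3 TPM and Fdps, farnesyl diphosphate synthase, at 128 ± 44.5 TPM. The order of these 4 is uncertain, since each neighbor pair differed by less than the larger of its 2 SDs. The lowest genes were Mylip at 5.93 ± 0.796 TPM, Ggps1 at 4.23 ± 0.252 TPM, Mvk at 3.61 ± 0.632 TPM and Mvd at 3.44 ± 2.99 TPM, and Mvk and Mvd did not differ beyond their spread. Srebf2 itself stood at 8.05 ± 1.07 TPM, under its escort Scap at 22.2 ± 1.10 TPM.

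Between libraries, levels are given as CPM, the read count scaled to TMM-normalized library size, and fold changes are log2 values from edgeR's quasi-likelihood fit over the 5 groups with their standard error (SE). A gene passed at an adjusted p of at most 0.05 over 15625 genes. Sqle, squalene epoxidase, had the widest range of the 26, from 3.01 to 116 CPM, or 38.7-fold. Ggps1, which makes geranylgeranyl diphosphate for protein prenylation, had the narrowest, from 6.03 to 8.93 CPM, or 1.48-fold. Npc1, which exports cholesterol from lysosomes, varied 1.90-fold.

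**Figure D1:**
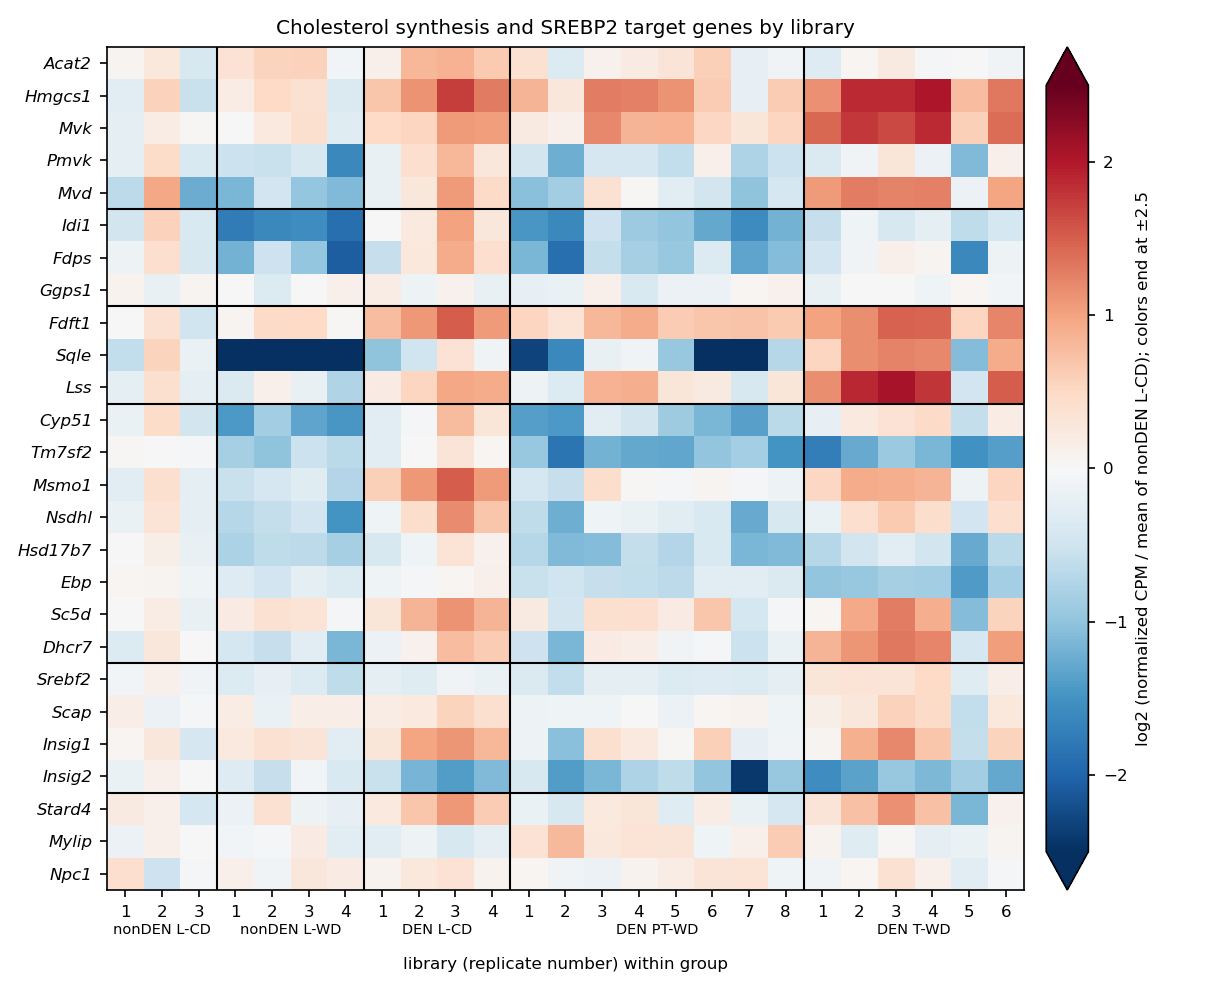
Each cell shows the log2 ratio of the CPM of a gene (rows, in pathway order, with lines between roles) in a library (columns, by group) to its mean in nonDEN L-CD; red is higher, blue lower, and colors end at ±2.5. In the row of Sqle the 4 nonDEN L-WD libraries and DEN PT-WD replicates 6 and 7 are at the blue end, and DEN T-WD replicate 5 is paler or bluer than the other 5 tumors in most rows.

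Some libraries stood apart in most of the 26 genes. Within tumors, DEN T-WD replicate 5 was the lowest library for 21 of 26 genes and replicate 3 the highest for 16. Replicate 5 also had 21900 TPM of Alb (albumin), against 82800 to 99700 in the other tumors, and 82.5 TPM of Igfbp1, a gene of the fasting response, against 946 to 1760. Within nonDEN L-CD, replicate 2 was the highest for 21 of 26 genes and replicate 3 the lowest for 15. The 10 clock genes summed to 205, 142 and 148 TPM in replicates 1 to 3, a sum over genes of opposite direction. By gene, replicate 2 was the highest for Arntl (1.4, 3.64 and 1.75 TPM) and Clock (13.1, 17.7 and 13.6 TPM). It was the lowest for Per3 (3.46, 1.3 and 2.18 TPM) and Dbp (55.1, 16.4 and 25.0 TPM). The other clock genes are not given by library. Within nonDEN L-WD, replicate 4 was the lowest for 18 genes, with 503 TPM over the 19 enzymes against 720 to 854 TPM in the others and 62.2 TPM of Srebf1, the SREBP1 gene, against 174 to 181 TPM. Within DEN L-CD, replicate 3 was the highest for 22 genes and replicate 1 the lowest for 21. The 6 markers of pancreatic acinar cells summed to between 0.250 and 4430 TPM, and stood highest in DEN PT-WD replicates 1 and 2, DEN L-CD replicate 3 and DEN T-WD replicate 6. Where leaving out such libraries moved a count of calls by over 1.5 times, the count without them is given beside it.

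The first comparison asked what WD did in uninjected liver. Of the 26 genes 8 passed, and all 8 were lower on WD. Of all tested genes 23.2% passed, 12.0% lower and 11.2% higher. By at least 2-fold, 4 members fell and none rose, against 2.04% and 3.24% of tested genes, 5.28% in all. The median log2 change of the 26 was -0.33, against 0.013 over all tested genes. The 8 were 2 of 3 isoprenoid genes, 1 of 3 genes from squalene to lanosterol, 4 of 8 genes from lanosterol to cholesterol and 1 of 4 genes of SREBP control, while none of the 5 mevalonate genes passed.

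Sqle, which makes the first oxygenation of the sterol branch, had 32.1, 72.4 and 43.8 CPM in nonDEN L-CD and 7.36, 3.01, 4.69 and 7.62 CPM in nonDEN L-WD. Every WD library was lower than each CD library. The log2 change was -3.13 ± 0.61 (SE), 8.73-fold lower (edgeR adjusted p = 0.00097), and it passed without each library in turn. Idi1, the isomerase that makes dimethylallyl diphosphate, had 92.2, 189 and 96.7 CPM on CD and 37.7, 41.0, 43.1 and 34.0 CPM on WD. It fell by 1.69 on the log2 scale (SE 0.26, edgeR adjusted p = 9.97e-05), again without overlap. Its transcripts share 17.7% of their 50-base words with pseudogenes such as Gm13502, so its count is uncertain to that extent. Fdps had 110, 161 and 90.8 CPM on CD and 53.3, 84.4, 61.6 and 29.1 CPM on WD (log2 change -1.08 ± 0.38, edgeR adjusted p = 0.0449). This call was lost when any of 6 of the 7 libraries was left out, and 26.2% of its 50-base words occur in other genes.

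Of the 8 genes from lanosterol onward, Cyp51, the demethylase that acts on lanosterol, changed most. It had 97.8, 151 and 79.1 CPM on CD and 40.2, 60.2, 44.0 and 39.6 CPM on WD, a change of -1.25 ± 0.30 (edgeR adjusted p = 0.00496). Tm7sf2, the sterol C14 reductase, was tight on CD at 48.3, 47.1 and 46.1 CPM and stood at 26.6, 23.5, 32.3 and 29.4 CPM on WD (-0.75 ± 0.19, edgeR adjusted p = 0.00564). Tm7sf2 overlaps Vps51 on the same strand and shares 9.87% of its 50-base words with it. Hsd17b7, the 3-ketosteroid reductase of the C4 demethylation complex, had 70.5, 77.5 and 61.4 CPM on CD and 40.3, 44.9, 44.2 and 39.3 CPM on WD (-0.73 ± 0.20, edgeR adjusted p = 0.0111). The groups of these 3 genes did not overlap.

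Ebp and Srebf2 fell by small amounts. Ebp had 141, 143 and 127 CPM on CD and 110, 98.3, 118 and 108 CPM on WD (-0.34 ± 0.12, edgeR adjusted p = 0.0391). Srebf2 had 30.6, 35.2 and 30.3 CPM on CD and 25.3, 27.7, 25.4 and 20.5 CPM on WD (-0.37 ± 0.13, edgeR adjusted p = 0.0391). Each of these 2 calls was lost in 5 of 7 fits that left out 1 library. Pmvk, phosphomevalonate kinase, Msmo1, the C4 methyl oxidase, and Nsdhl, the C4 decarboxylase, were lower in every WD library but did not pass (edgeR adjusted p between 0.0763 and 0.143). In all, 11 of 26 genes were lower without overlap, against 15.2% of all tested genes.

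For other steps no difference was called on WD. Hmgcs1, the cytosolic HMG-CoA synthase, was estimated at 0.21 ± 0.34, Fdft1, squalene synthase, at 0.28 ± 0.21, Sc5d at 0.23 ± 0.35 and Insig1 at 0.19 ± 0.33 (edgeR adjusted p between 0.347 and 0.723). The sterol transporters Stard4 and Npc1, and Mylip, the ubiquitin ligase that degrades lipoprotein receptors, gave log2 estimates between -0.04 and 0.15.

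The number of calls depended on single libraries. Without nonDEN L-CD replicate 2, 3 genes passed (Idi1, Sqle and Tm7sf2) in place of 8, and the median change was -0.19. Over all genes 1889 of 16004 passed in that fit, against 3626 of 15625 with all libraries. Without nonDEN L-WD replicate 1 or replicate 4, 5 members passed (2681 and 3809 of all genes). Clock genes differed between the diets as well, with Arntl, a core activator, lower (-1.88 ± 0.40), Clock lower (-0.63 ± 0.12) and Per3 higher (1.18 ± 0.27) on WD, the 3 of 10 listed clock genes that passed. Of the cell markers, 3 of 5 stellate cell genes (summed TPM 143 to 157 on CD and 142 to 225 on WD) and 2 of 8 macrophage genes (93.4 to 147 and 106 to 180) were higher and 2 of 7 hepatocyte genes (62600 to 68600 and 51500 to 67800) were lower on WD. The part of these genes in the change of the cholesterol genes was not tested.

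**Figure D2:**
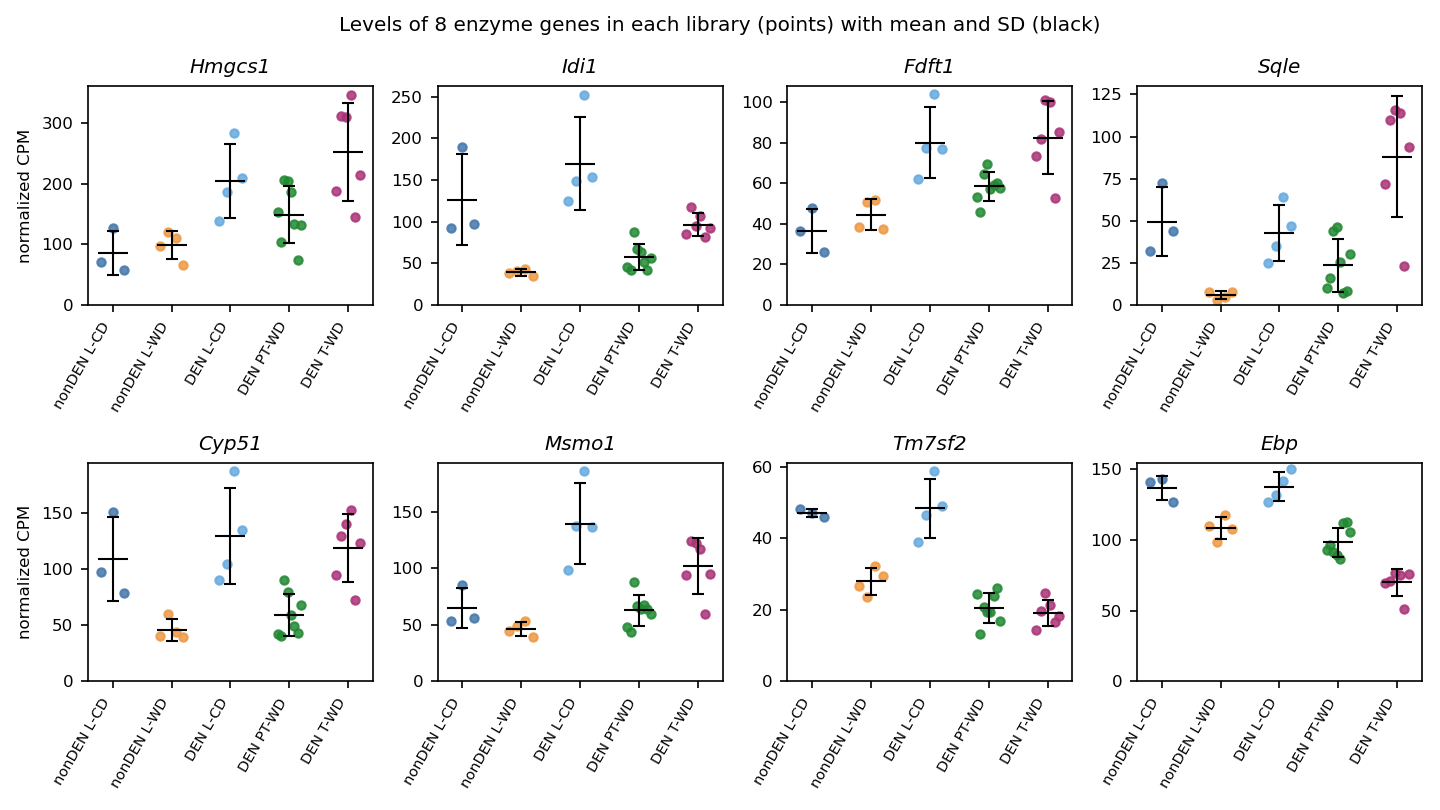
CPM of 8 enzyme genes (linear axes from 0) in each library by group, with the mean and SD in black. Sqle is between 3.01 and 7.62 CPM in nonDEN L-WD and up to 116 CPM in tumors, while the 14 libraries of DEN mice on WD lie at or under 26.2 CPM of Tm7sf2.

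The second comparison asked what DEN did on CD. With DEN 5 genes rose and 1, Insig2, fell, so 6 of 26 passed, against 21.3% of all tested genes. Higher calls made up 9.12% and lower calls 12.2% of tested genes. By at least 2-fold, 3 members rose and 1 fell, against 2.76% and 1.93% of tested genes, 4.70% in all. The median change was 0.39, against 0.025 over all tested genes. The genes that rose were Acat2, Hmgcs1, Mvk, Fdft1 and Msmo1. This comparison and the first share the 3 nonDEN L-CD libraries.

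Hmgcs1, which condenses acetyl-CoA with acetoacetyl-CoA, had 70.8, 127 and 58.3 CPM in nonDEN L-CD and 138, 187, 284 and 209 CPM in DEN L-CD. It was higher by 1.26 ± 0.35 on the log2 scale (2.40-fold, edgeR adjusted p = 0.0138), without overlap. Fdft1, which joins 2 farnesyl diphosphates into squalene, had 36.2, 47.5 and 25.9 CPM against 62.1, 77.1, 104 and 76.7 CPM with DEN. The change was 1.13 ± 0.21 (edgeR adjusted p = 0.000745), and Fdft1 and Msmo1 were the 2 members that passed here without each library in turn. No member passed in this comparison when replicate number was added to the fit as a block. Fdft1 overlaps Ctsb on the opposite strand, and since the use of strand in counting is not stated, reads from the 2 cannot be told apart there. The same limit holds for Hmgcs1, Mvd, Idi1, Ggps1, Lss, Cyp51, Scap, Insig2 and Npc1, which also overlap a gene on the opposite strand. Fdft1 also shares 9.38% of its 50-base words with Gm6781. Msmo1 had 53.6, 85.4 and 56.0 CPM against 98.3, 137, 186 and 136 CPM (1.10 ± 0.25, edgeR adjusted p = 0.00305).

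Mvk, mevalonate kinase, had 3.30, 4.40 and 3.93 CPM without DEN and 5.48, 5.61, 8.16 and 8.03 CPM with it (0.81 ± 0.27, edgeR adjusted p = 0.0356). Acat2, the cytosolic thiolase that supplies acetoacetyl-CoA, had 44.2, 50.5 and 32.0 CPM and 46.1, 74.9, 77.1 and 66.1 CPM, so its groups overlapped (0.64 ± 0.21, edgeR adjusted p = 0.0330). Both calls were lost in 5 of 7 fits that left out 1 library, and Acat2 shares 39.1% of its 50-base words with its neighbor Acat3.

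Insig2, whose product holds SCAP in the endoplasmic reticulum, went the other way. It had 274, 336 and 308 CPM in nonDEN L-CD and 207, 137, 116 and 143 CPM in DEN L-CD. The log2 change was -1.02 ± 0.28 (2.03-fold lower, edgeR adjusted p = 0.0124), without overlap. Insig1, itself an SREBP target, was 149, 176 and 108 CPM without DEN and 179, 287, 311 and 255 CPM with it. Those groups did not overlap either, but the difference of 0.84 ± 0.34 did not pass (edgeR adjusted p = 0.0795). In all, 8 members were higher without overlap and 1 was lower, where 17.2% of tested genes were higher and 17.2% lower without overlap.

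Several genes called on WD were not called with DEN. Sqle was estimated at -0.22 ± 0.57, Cyp51 at 0.25 ± 0.30, Tm7sf2 at 0.04 ± 0.19 and Hsd17b7 at 0.01 ± 0.20 (edgeR adjusted p between 0.599 and 0.980). Without the libraries high in pancreatic genes, of which DEN L-CD replicate 3 bears on this comparison, 3 members passed in place of 6, and over all genes 2453 of 15534 passed in place of 3327 of 15625. The members' count was also 3 without nonDEN L-CD replicate 1 or replicate 3 (3252 and 2327 of all genes). Arntl and Clock were lower and Per3 was higher with DEN as well, by -1.95 ± 0.40, -0.81 ± 0.12 and 1.19 ± 0.27. Of the cell markers, Col3a1 of 5 stellate cell genes (0.73 ± 0.26; summed TPM 143 to 157 without and 148 to 187 with DEN) and Cd8a of 4 T cell genes (2.16 ± 0.71; 1.15 to 1.34 and 1.21 to 2.42) were higher, and Pecam1 of 4 endothelial genes (-0.30 ± 0.10; 39.4 to 49.7 and 43.6 to 50.9) was lower, as was Angptl4 of 6 genes of the feeding response (-1.14 ± 0.18). The part of these genes in the results was not tested.

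DEN L-CD and nonDEN L-WD differ in both DEN and diet and share no library. In DEN L-CD 7 of 26 genes were higher and none was lower, whereas 0.717% of all tested genes passed, 0.499% higher and 0.218% lower. All 7 were enzyme genes: Idi1, Fdft1, Sqle, Cyp51, Tm7sf2, Msmo1 and Nsdhl. By at least 2-fold, 5 were higher and none lower, against 0.192% and 0.0576% of tested genes, 0.250% in all. The median difference of the 26 was 0.76, against -0.01 over all tested genes.

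Idi1 was higher by 2.12 ± 0.25 (edgeR adjusted p = 0.000124), with 125, 149, 252 and 153 CPM in DEN L-CD against 34.0 to 43.1 CPM in nonDEN L-WD. Sqle was higher by 2.91 ± 0.59 (edgeR adjusted p = 0.0177), with 24.7, 34.9, 63.8 and 46.6 CPM against 3.01 to 7.62 CPM. Msmo1 was higher by 1.59 ± 0.23 (edgeR adjusted p = 0.00125), with 98.3 to 186 CPM against 44.3, 48.6, 53.0 and 39 CPM. In each of the 3 genes the lowest DEN L-CD library was above the highest nonDEN L-WD library.

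Cyp51 was higher by 1.5 ± 0.29, with 90.8, 105, 188 and 135 CPM in DEN L-CD (edgeR adjusted p = 0.0152). Nsdhl had 27.5, 40.3, 67.8 and 48.3 CPM in DEN L-CD and 18.2, 19.7, 21.3 and 10.5 CPM in nonDEN L-WD (1.40 ± 0.30, edgeR adjusted p = 0.0240). Fdft1 (0.85 ± 0.19) and Tm7sf2 (0.79 ± 0.17) completed the list. In all, 16 of 26 members were higher in DEN L-CD without overlap, against 4.99% of tested genes, and among them were 4 of the 5 mevalonate genes, which did not pass. The number that passed was sensitive to single libraries. It was 2 without DEN L-CD replicate 3, nonDEN L-WD replicate 1 or nonDEN L-WD replicate 3, and 2 without the libraries high in pancreatic genes. It was 3 without nonDEN L-WD replicate 2 and 4 without DEN L-CD replicate 4. The count over all genes moved as well, from 112 to 51, 40, 11, 31, 39 and 63 in these fits in the order given. Idi1 and Msmo1 passed without each library in turn.

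**Figure D3:**
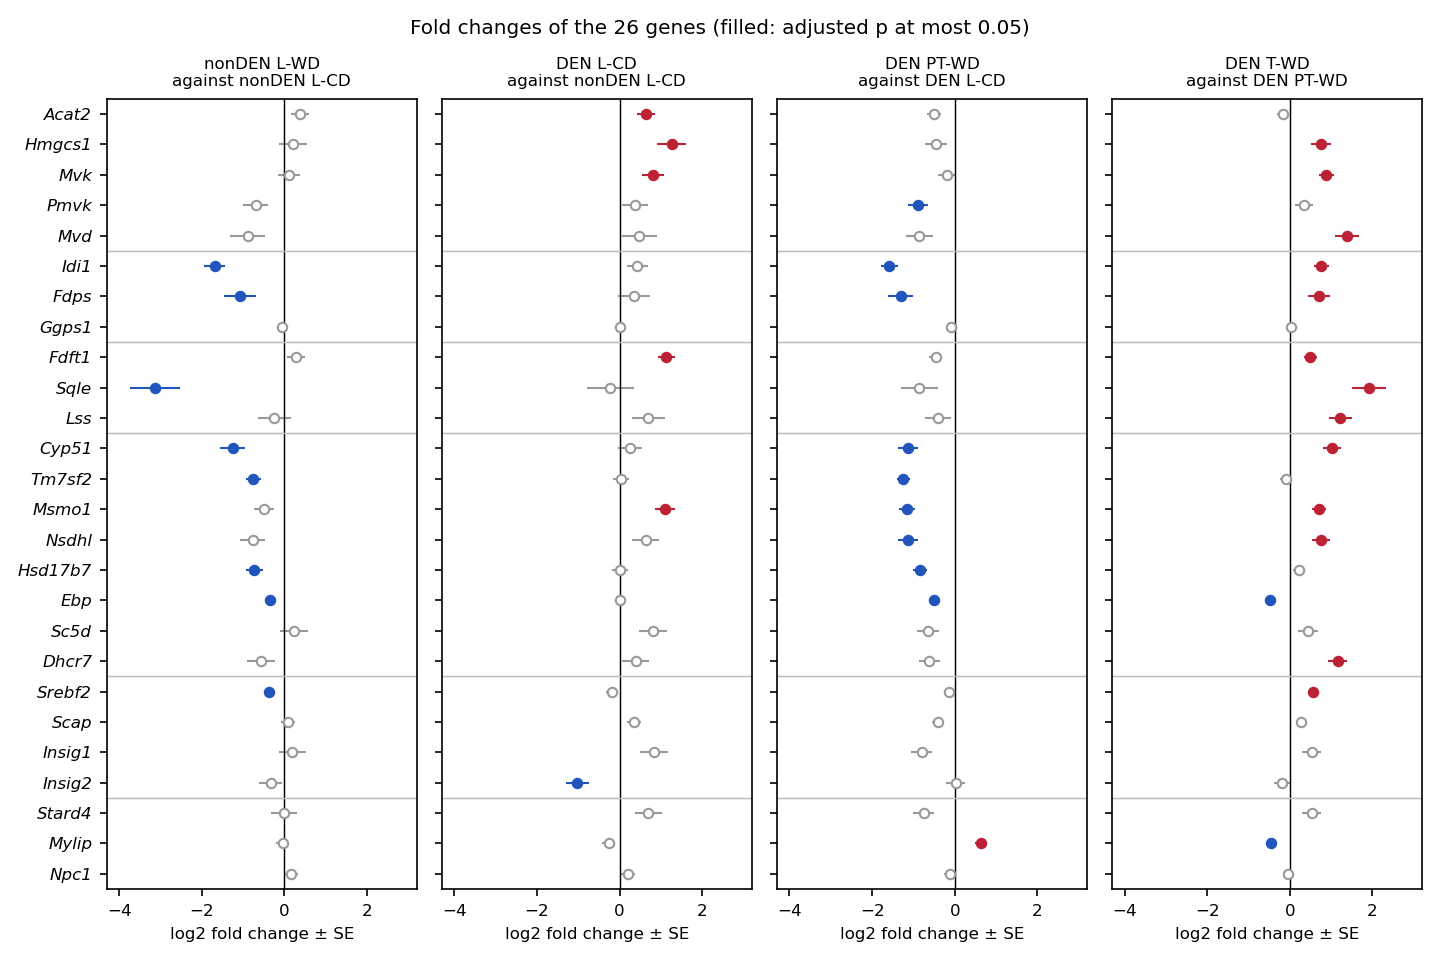
Log2 fold changes with SE of the 26 genes, in pathway order, in 4 comparisons; filled points passed at an adjusted p of at most 0.05, red higher and blue lower. The 8 calls for WD in uninjected liver and 9 of the 10 for peritumoral liver against DEN L-CD are lower, and 13 of the 15 for tumor against peritumoral liver are higher.

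The effect of WD in DEN mice was read from DEN PT-WD against DEN L-CD, which also sets tissue beside a tumor against whole liver. In peritumoral liver 9 enzyme genes were lower and Mylip was higher, so 10 of 26 passed, against 10.6% of all tested genes. Lower calls made up 3.76% and higher calls 6.80% of tested genes. By at least 2-fold, 6 members fell and none rose, against 0.378% and 1.52% of tested genes, 1.90% in all. The median change was -0.62, against 0.019 over all tested genes. None of the 19 enzyme genes had an estimate above 0.

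Idi1 fell from 125, 149, 252 and 153 CPM in DEN L-CD to between 41.3 and 87.9 CPM (median 53.9) in the 8 DEN PT-WD libraries, a change of -1.58 ± 0.20 (edgeR adjusted p = 0.000293). Fdps fell from 80.6, 145, 230 and 162 CPM to between 32.7 and 95.8 CPM (median 59.6; -1.31 ± 0.30, edgeR adjusted p = 0.00916). The groups of Fdps overlapped through DEN L-CD replicate 1, and those of Idi1 did not. The call of Fdps was lost without DEN L-CD replicate 3, and that of Pmvk without DEN L-CD replicate 2 or 3.

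Tm7sf2 fell from 39, 46.6, 59.0 and 49.0 CPM to between 13.3 and 26.2 CPM (median 20.2), a change of -1.24 ± 0.15 (edgeR adjusted p = 0.000173). Msmo1 fell from 98.3, 137, 186 and 136 CPM to between 43.8 and 87.8 CPM (median 63.6; -1.15 ± 0.19, edgeR adjusted p = 0.00119). Cyp51 fell from 90.8, 105, 188 and 135 CPM to between 40.2 and 90.5 CPM (median 54.0; -1.14 ± 0.24, edgeR adjusted p = 0.00536). These 3 genes did not overlap between the groups; Cyp51 came close, with 90.5 CPM in the highest peritumoral and 90.8 CPM in the lowest DEN L-CD library.

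Nsdhl fell from 27.5, 40.3, 67.8 and 48.3 CPM to between 12.5 and 27.6 CPM (median 22.7; -1.13 ± 0.24, edgeR adjusted p = 0.00646). Pmvk fell from 14.3, 21.5, 28.6 and 19.8 CPM to between 6.96 and 17.6 CPM (median 11.4; -0.88 ± 0.24, edgeR adjusted p = 0.0237). Hsd17b7 fell from 52.8, 64.7, 88.7 and 74.9 CPM to between 31.8 and 53.4 CPM (median 37.4; -0.84 ± 0.16, edgeR adjusted p = 0.0030). In these 3 genes the groups overlapped at DEN L-CD replicate 1. Ebp fell by 0.49 (SE 0.09) on the log2 scale.

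Mylip, a target of the sterol receptor LXR, was 11.8, 13.1, 10.9 and 12.3 CPM in DEN L-CD and between 13.4 and 25.1 CPM (median 18.1) in DEN PT-WD. It rose by 0.63 ± 0.13 (edgeR adjusted p = 0.00494), without overlap. Without overlap 6 members were lower and 1 was higher, against 3.05% and 4.36% of tested genes. Without the libraries high in pancreatic genes 5 members passed, all lower, and 449 of 15534 genes passed in all, against 10 members and 1650 of 15625 genes with every library. On the TPM scale the median over all tested genes was itself 0.23 higher in DEN PT-WD, and the median of the 26 genes was -0.32. Each of the 10 calls kept its sign there. Markers of other cells were higher in peritumoral liver: 3 of 5 stellate cell genes (summed TPM 148 to 187 in DEN L-CD and 219 to 469 in DEN PT-WD), 4 of 8 macrophage genes (112 to 185 and 139 to 300) and 3 of 4 endothelial genes (43.6 to 50.9 and 67.1 to 89.8), while none of 7 hepatocyte genes passed. Their part in the result was not tested.

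The test of whether WD acted differently with and without DEN compared the change in uninjected liver with this one in 1 term. Peritumoral liver stood for the liver of DEN mice on WD, so tissue kind is part of the term. Of the 26 genes 2 passed, 1 in each direction, against 8.39% of all tested genes (4.65% above 0 and 3.74% below), and none of them reached 2-fold, against 2.75% of tested genes. Acat2 had 0.38 ± 0.21 for WD without DEN and -0.50 ± 0.16 with DEN, a difference of -0.88 ± 0.27 (edgeR adjusted p = 0.0445). Mylip had -0.04 ± 0.16 and 0.63 ± 0.13, a difference of 0.67 ± 0.20 (edgeR adjusted p = 0.0406). Leaving out 1 library in turn took the count to between 0 and 3, with Acat2 lost in 14 and Mylip in 10 of 19 such fits, the fit without the 4 libraries high in pancreatic genes gave 0 and the fit without the 2 lowest in albumin gave 5 (816 and 2021 of all genes, against 1311). For Sqle the term was 2.27 ± 0.76 (edgeR adjusted p = 0.0666), which did not pass.

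On WD, DEN PT-WD was set against nonDEN L-WD. Of the 26 genes 2 passed, against 12.4% of all tested genes (7.50% higher and 4.87% lower), and both were higher in DEN PT-WD. By 2-fold, 1 member was higher and none lower, against 2.36% and 0.410% of tested genes, 2.76% in all. No member was without overlap, against 3.81% of tested genes higher and 2.92% lower. Sqle had 7.36, 3.01, 4.69 and 7.62 CPM in nonDEN L-WD and between 7.28 and 46.3 CPM (median 20.9) in DEN PT-WD. The peritumoral libraries were split, with 43.6, 46.3, 30.3 and 25.7 CPM in replicates 3, 4, 8 and 5 and between 7.28 and 16.1 CPM in the other 4, of which replicate 6 fell within the range of nonDEN L-WD. The change was 2.05 ± 0.53 (edgeR adjusted p = 0.0156). Mylip rose by 0.41 ± 0.13 (edgeR adjusted p = 0.0353), from 13.7, 13.8, 16.5 and 11.8 CPM. The count was 1 without DEN PT-WD replicates 2 or 8 or nonDEN L-WD replicates 1 or 4, and 4 without DEN PT-WD replicates 1 or 7. Over all genes 1724, 1355, 1022 and 655 passed in the first 4 of these fits and 1976 and 1924 in the last 2, against 1933 with all libraries. Without the 2 libraries lowest in albumin, which include DEN PT-WD replicate 7, it was 5, and 2798 of all genes passed in place of 1933. Among cell markers 4 of 5 stellate cell, 3 of 8 macrophage, 2 of 4 endothelial, 1 of 4 T cell and 3 of 5 proliferation genes were higher and 1 of 7 hepatocyte genes was lower in DEN PT-WD, as were 1 of 10 clock genes and 2 of 6 genes of the feeding response, and their part was not tested.

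Against nonDEN L-CD, DEN PT-WD combined both treatments. Against 45.3% of all tested genes (23.5% higher and 21.9% lower), 12 of 26 passed, 4 higher (Hmgcs1, Mvk, Fdft1 and Mylip) and 8 lower (Idi1, Fdps, Cyp51, Tm7sf2, Hsd17b7, Ebp, Srebf2 and Insig2). By 2-fold, 2 members were lower and none higher, against 3.08% and 10.2% of tested genes, 13.3% in all. Without overlap 6 members were lower and none higher, against 14.9% and 16.9%. The largest falls were Tm7sf2 at -1.20 ± 0.16 (edgeR adjusted p = 4.2e-06) and Idi1 at -1.15 ± 0.22 (edgeR adjusted p = 0.000234). Insig2 stood between 57.7 and 231 CPM (median 157) against 274, 336 and 308 CPM, a change of -0.99 ± 0.24 (edgeR adjusted p = 0.00209). The median of the 26 was -0.15, but 0.16 on the TPM scale, where the median of all tested genes was 0.24 and Srebf2 had the opposite sign. Of the 4 higher calls, Hmgcs1 and Mvk were each lost in 7 and Mylip in 5 of 11 fits that left out 1 library, and Fdft1 in 1. The count was 7 without nonDEN L-CD replicate 2 (5160 of all genes in place of 7082). Markers of other cells moved too: 5 of 5 stellate cell genes (summed TPM 143 to 157 in nonDEN L-CD and 219 to 469 in DEN PT-WD), 5 of 8 macrophage genes (93.4 to 147 and 139 to 300), 3 of 4 endothelial genes (39.4 to 49.7 and 67.1 to 89.8), 1 of 4 T cell genes and 4 of 5 proliferation genes were higher, and 4 of 7 hepatocyte genes (62600 to 68600 and 43400 to 68500) were lower. Of the clock genes Arntl (-1.47 ± 0.33) and Clock (-0.98 ± 0.10) were lower and Per3 (1.38 ± 0.25) was higher. Angptl4 was lower, as the only 1 of 6 genes of the feeding response that passed. The part of all these genes in the result was not tested.

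The last comparisons set tumor against the liver around it. In DEN T-WD, 13 genes were higher and 2 were lower than in DEN PT-WD, so 15 of 26 passed, against 37.7% of all tested genes. Higher calls made up 19.5% and lower calls 18.1% of tested genes. By at least 2-fold, 5 members were higher and none lower, against 4.81% and 3.09% of tested genes, 7.90% in all. The median change was 0.53, against 0.01 over all tested genes. The 13 included 3 of 5 mevalonate genes, 2 of 3 isoprenoid genes, 3 of 3 genes from squalene to lanosterol and 4 of 8 later genes, with Srebf2.

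Sqle ran from 7.28 to 46.3 CPM (median 20.9) in DEN PT-WD and from 23.3 to 116 CPM (median 102) in DEN T-WD. Of the 6 tumors, 5, at 71.6 CPM or more, stood above every peritumoral library, and replicate 5, at 23.3 CPM, was within their range. The change was 1.91 ± 0.41 (3.76-fold, edgeR adjusted p = 0.000808). Lss, which closes the rings to give lanosterol, ran from 17.6 to 43.7 CPM (median 28.1) and from 16.8 to 97.7 CPM (median 73.6), a change of 1.22 ± 0.28 (edgeR adjusted p = 0.00142). The same 5 tumors, at 52.3 CPM or more, lay above the peritumoral range.

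Mvd, mevalonate diphosphate decarboxylase, ran from 2.24 to 6.02 CPM (median 3.38) in DEN PT-WD and from 4.13 to 11.2 CPM (median 10.2) in tumors (1.39 ± 0.29, edgeR adjusted p = 0.000703). Mvk ran from 4.22 to 8.93 CPM (median 5.59) and from 5.86 to 14.1 CPM (median 11.4; 0.88 ± 0.18, edgeR adjusted p = 0.000553). Hmgcs1 ran from 74.4 to 206 CPM (median 144) and from 145 to 347 CPM (median 262; 0.76 ± 0.24, edgeR adjusted p = 0.0157). In these 3 mevalonate genes the ranges overlapped. Hmgcs1 had 189 and 145 CPM in tumor replicates 1 and 5, within the peritumoral range, and 214 to 347 CPM in the other 4.

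Among the later steps, Dhcr7, the last reductase, ran from 18.5 to 46.7 CPM (median 37.4) in DEN PT-WD and from 30.0 to 101 CPM (median 85.6) in tumors (1.16 ± 0.23, edgeR adjusted p = 0.000409). Cyp51 ran from 40.2 to 90.5 CPM (median 54.0) and from 72.8 to 153 CPM (median 127; 1.02 ± 0.21, edgeR adjusted p = 0.000697). In both, replicate 5 was the single tumor within the peritumoral range. Idi1, Nsdhl, Fdps, Msmo1 and Fdft1 rose by 0.50 to 0.76, and the call of Fdps was lost when any of 11 of the 14 libraries was left out.

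Srebf2 rose by 0.57 ± 0.09 (edgeR adjusted p = 4e-05). It ran from 21 to 27.5 CPM (median 25.4) in DEN PT-WD and from 26.1 to 45.0 CPM (median 39.8) in tumors, where replicate 5 was the lowest at 26.1 CPM. Scap, Insig1 and Stard4 were estimated at 0.28 ± 0.12, 0.53 ± 0.23 and 0.53 ± 0.23 and did not pass (edgeR adjusted p between 0.064 and 0.0751).

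Ebp was lower in tumors, and it was the one member whose groups did not overlap in this comparison, where 5.18% of tested genes were lower and 4.29% higher without overlap. It ran from 86.7 to 113 CPM (median 94.7) in DEN PT-WD and from 51.2 to 76.6 CPM (median 73.2) in tumors, a change of -0.49 ± 0.08 (edgeR adjusted p = 8.34e-05). Mylip changed by -0.45 ± 0.11 (edgeR adjusted p = 0.00268), from 13.4 to 25.1 CPM down to 11.6 to 15.3 CPM. Tm7sf2, at 14.3 to 24.7 CPM (median 19) in tumors, differed by -0.10 ± 0.13 from DEN PT-WD (edgeR adjusted p = 0.609).

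The call of Fdps was lost in 11 of 14 fits that left out 1 library. Leaving out tumor replicate 5 raised the count from 15 to 20, with Scap, Insig1, Stard4, Sc5d and Hsd17b7 added, all higher (log2 changes 0.33 to 0.71), and the median change to 0.67. Over all genes 6408 of 15512 passed in that fit, against 5884 of 15625. Without the 4 libraries high in pancreatic genes 11 members passed (4169 of 15534 genes), and without the 2 lowest in albumin (DEN T-WD replicate 5 and DEN PT-WD replicate 7) 19 passed (6291 of 15456 genes). Other cell markers moved in the same comparison. Of 7 hepatocyte markers 2 were higher (Ahsg and Alb) and 2 lower (Apoa2 and Cps1), with sums of 43400 to 68500 TPM in DEN PT-WD and 34000 to 126000 TPM in tumors. Of 8 macrophage markers 3 were lower (Marco, Clec4f and Vsig4), with sums of 139 to 300 TPM and 109 to 230 TPM. Of 5 stellate cell and fibroblast markers 3 were higher and 1 was lower, with sums of 219 to 469 TPM and 194 to 295 TPM. All 5 proliferation genes were higher, 1 of 4 endothelial markers was higher (sums of 67.1 to 89.8 TPM and 82.2 to 97.6 TPM), and none of 3 bile duct, 4 T cell or 6 pancreatic genes passed. Of 10 clock genes 1 was lower, and of 6 genes of the feeding response 2 were higher and 2 lower. Their part in the tumor result was not tested.

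Tumors were also set against the 3 whole livers, with the same tumor libraries in each comparison. Cell markers moved in all 3. Against nonDEN L-WD, DEN L-CD and nonDEN L-CD in turn, the hepatocyte genes lower in tumors were 3, 3 and 5 of 7, with 1 higher each time. The stellate cell genes that were higher were 3, 3 and 4 of 5 (with 1, 1 and 0 lower), the endothelial genes 2, 2 and 4 of 4 and the macrophage genes 3, 3 and 3 of 8 (with 2, 3 and 2 lower), and all 5 proliferation genes were higher in each. Of 4 T cell genes Cd8a was higher against both groups without DEN, and of 3 bile duct genes Krt19 was lower against DEN L-CD. Of 10 clock genes 3, 3 and 2 were lower and 0, 0 and 2 were higher, and of 6 genes of the feeding response 2 were higher and 2 lower each time. Their part in these results was not tested. Without tumor replicate 5 the members that passed in the 3 comparisons were 20, 10 and 16, in place of 16, 7 and 11, and over all genes 7908, 7585 and 8662 of 15512 passed, in place of 7656, 7324 and 8439 of 15625. Relative to nonDEN L-WD, 16 of 26 genes passed, against 49.0% of all tested genes (25.9% higher and 23.1% lower), 13 higher and 3 lower (Tm7sf2, Ebp and Insig2), with Fdps lost in 7 of 10 fits that left out 1 library. By 2-fold, 10 were higher and none lower, against 10.4% and 5.24% of tested genes, 15.7% in all, led by Sqle at 3.96 ± 0.59 (15.6-fold, edgeR adjusted p = 1.04e-05), Mvd at 1.91 ± 0.38 (edgeR adjusted p = 0.000265) and Lss at 1.77 ± 0.36 (edgeR adjusted p = 0.000297). The lowest tumor for Sqle, at 23.3 CPM, was above the highest nonDEN L-WD library at 7.62 CPM. Without overlap 9 members were higher and 2 lower, against 15.8% and 15.5% of tested genes.

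Relative to DEN L-CD, the other group of DEN mice, 7 of 26 passed, against 46.9% of all tested genes (25.4% higher and 21.5% lower). By 2-fold, 1 member was lower and none higher, against 4.58% and 9.68% of tested genes, 14.3% in all. Without overlap 3 members were lower and none higher, against 15.6% and 15.9%. Mvk (0.69 ± 0.22, edgeR adjusted p = 0.0138) and Srebf2 (0.43 ± 0.11, edgeR adjusted p = 0.00256) were higher in tumors. Acat2, Idi1, Tm7sf2, Hsd17b7 and Ebp were lower, led by Tm7sf2 at -1.34 ± 0.16 (edgeR adjusted p = 6.55e-07) and Ebp at -0.98 ± 0.10 (edgeR adjusted p = 9.29e-08). Tm7sf2 had 39, 46.6, 59.0 and 49.0 CPM in DEN L-CD, above every tumor. Sqle (1.05 ± 0.50) and Lss (0.82 ± 0.34) did not pass (edgeR adjusted p = 0.0891 and 0.0523). The median of the 26 was -0.15, but 0.27 on the TPM scale, where all tested genes had a median of 0.32, so no direction is given for the set.

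Relative to nonDEN L-CD, 11 of 26 passed, against 54.0% of all tested genes (27.8% higher and 26.2% lower). By 2-fold, 5 members were higher and 2 lower, against 14.5% and 5.82% of tested genes, 20.3% in all. Without overlap 3 were higher and 4 lower, against 21.7% and 20.2%. Hmgcs1 (1.57 ± 0.34, edgeR adjusted p = 0.000537), Lss (1.52 ± 0.39, edgeR adjusted p = 0.0025) and Mvk (1.5 ± 0.26, edgeR adjusted p = 4.67e-05) led 7 genes that were higher. Tm7sf2 (-1.30 ± 0.17, edgeR adjusted p = 1.37e-06) and Insig2 (-1.17 ± 0.26, edgeR adjusted p = 0.000537) led 4 that were lower. Sqle, Idi1 and Cyp51 did not pass (0.83 ± 0.55, -0.39 ± 0.24 and 0.13 ± 0.28).

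The 19 enzyme genes together had 858 ± 209 TPM (SD, n = 3) in uninjected liver on CD, with libraries from 707 to 1100. On WD without DEN the sum was 716 ± 152 TPM (n = 4; 503 to 854). With DEN on CD it was 1250 ± 329 TPM (n = 4; 845 to 1640). Peritumoral liver had 890 ± 149 TPM (n = 8; 624 to 1030) and tumors had 1340 ± 355 TPM (n = 6; 739 to 1680). The ranges of every pair of groups overlapped, and the sum carries no test. The 3 genes from squalene to lanosterol had a summed TPM of 152 ± 48.4 in tumors and 65.2 ± 18.2 in DEN PT-WD, and the 3 isoprenoid genes had 244 ± 93.1 in DEN L-CD and 89.3 ± 35.3 in nonDEN L-WD.

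**Figure D4:**
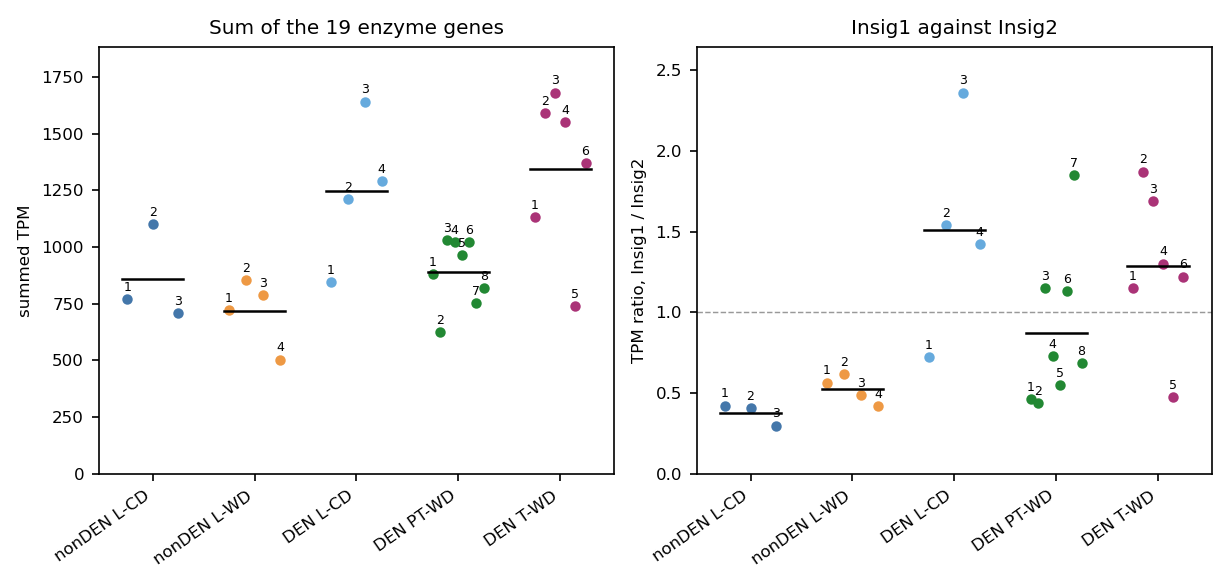
Left, the summed TPM of the 19 enzyme genes, and right, the ratio of Insig1 to Insig2 TPM, in each library (points numbered by replicate) with the group mean as a line; the dashed line marks a ratio of 1. All 7 nonDEN libraries lie at 0.618 or less, and 3 of 4 DEN L-CD and 5 of 6 tumor libraries lie above 1.

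Insig1 and Insig2 encode proteins of like function, and the balance of their transcripts is given here by library. The ratio of their TPM was 0.422, 0.405 and 0.297 in nonDEN L-CD and 0.564, 0.618, 0.485 and 0.419 in nonDEN L-WD. It was 0.722, 1.54, 2.36 and 1.42 in DEN L-CD, between 0.438 and 1.85 (median 0.706) in DEN PT-WD and between 0.474 and 1.87 (median 1.26) in tumors. Insig2 exceeded Insig1 in each of the 7 nonDEN libraries. Tumor replicate 5 had the lowest ratio of the tumors, and DEN PT-WD replicate 7, at 57.7 CPM of Insig2, had the highest ratio of its group. The ratio was formed after the levels were seen. Exact two-sided permutation tests of its log2 value in 10 comparisons gave adjusted p-values from 0.0952 to 0.638, so no difference passed, while 4 had an unadjusted p under 0.05. With 3 livers against 4 this test cannot go below an exact p of 0.0571.

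Genes around the pathway were counted from lists that excluded the 26. Of 10 genes of SREBP processing and sterol control in the endoplasmic reticulum, 1 was higher and 2 lower on WD without DEN, 1 was higher and 4 lower with DEN on CD, and 4 were higher and 1 lower in tumors relative to peritumoral liver. Srebf1, which drives fatty acid synthesis, was higher on WD (2.43 ± 0.41, edgeR adjusted p = 0.000278) and with DEN on CD (2.03 ± 0.40, edgeR adjusted p = 0.0012). Syvn1, a ubiquitin ligase, was lower in both (-1.54 ± 0.29 and -2.03 ± 0.29). Of 6 genes of acetyl-CoA supply and further SREBP2 targets, Acss2, Rdh11 and Mmab fell in peritumoral liver relative to DEN L-CD (-1.06 ± 0.26, -1.0 ± 0.20 and -0.36 ± 0.11), and Rdh11, Mmab and Tmem97 were higher in tumors than in DEN PT-WD (0.57 ± 0.18, 0.39 ± 0.09 and 0.34 ± 0.09).

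Of 7 genes of LXR and cholesterol efflux, 4 were higher and none lower on WD in uninjected liver. Abcg5 and Abcg8, which together form the transporter that moves sterol into bile, rose by 1.42 ± 0.18 and 1.29 ± 0.20 (edgeR adjusted p = 1.33e-05 and 0.000119). With DEN on CD they were also higher (0.72 ± 0.18 and 0.83 ± 0.20, edgeR adjusted p = 0.00557 and 0.00471), with Abcg5 at 20.1 to 26.4 TPM without and 34.9 to 45.4 TPM with DEN, while Abca1, which exports cholesterol from cells, was lower (-0.58 ± 0.20, edgeR adjusted p = 0.0401). Both transporter genes were higher again in peritumoral liver relative to DEN L-CD (0.98 ± 0.14 and 0.66 ± 0.16) and lower in tumors than in DEN PT-WD (-0.46 ± 0.12 and -0.40 ± 0.14). Of 8 genes of cholesterol ester handling, Soat1, which esterifies cholesterol, rose in DEN PT-WD against nonDEN L-WD (0.88 ± 0.18) and against DEN L-CD (0.77 ± 0.18). In tumors against DEN PT-WD, Soat2 was higher (0.60 ± 0.15) and Ces1d was lower (-1.17 ± 0.18). Of 9 genes that use isoprenoids, 3 passed in each of the first 2 comparisons and in tumor against peritumoral liver, with changes of at most 0.62 in size.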

How the data were processed

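RNA of 25 liver and tumor samples was sequenced, 1 library each, from polyadenylated RNA, single end. The authors checked reads with FastQC, aligned them to GRCm38 with STAR and ran RSEM; versions of STAR and RSEM, annotation release, trimming and use of strand are not given in the sources used here. The deposited expected count of each gene is RSEM's unnormalized estimate. The deposited TPM is RSEM's length-corrected share of transcripts. The deposited FPKM was read but not tested.

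After rounding to whole numbers, expected counts entered edgeR 4.0.16 under R 4.3.3 (quasi-likelihood test, TMM, filterByExpr with a minimum count of 10, 1 fit over 5 groups, Benjamini-Hochberg over 15625 genes; 2-fold counts used a log2 change of at least 1). DESeq2 1.42.0 (Wald test and size factors), dropping the filter, fits of the compared groups alone with and without the replicate block, and leaving out each library were alternatives, and 2 fits without libraries high in pancreatic genes or low in albumin were added after the data were seen. TPM differences used a pseudocount of 1, or 0.1 as an alternative. Tables and figures used Python 3.11.15, pandas 2.3.3, NumPy 2.4.6, SciPy 1.17.1 and Matplotlib 3.10.9.

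Total expected counts per library were 21530083 to 38074411 (median 27610432). All replicate pairs differed by more than counting error. The members and lists were chosen with earlier results of these data known. All members were named; of other lists at most 4 genes that passed with the largest change; values by library were printed for at most 8 members per comparison. Gene positions and shared 50-base words came from GENCODE M21 and promoters from RefSeq.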

Additional observations from a re-analysis of the deposited data

Results flagged for a closer look

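In 5 cases a member had a library far from the rest of its group by Dixon's criterion, of 104 groups of values examined (26 genes in 4 groups of 4 to 8 libraries), where chance alone flags about 1 in 20. In DEN T-WD, replicate 5 was lowest for Mvd at 4.13 CPM and for Ebp at 51.2 CPM. In DEN PT-WD, replicate 2 was lowest for Srebf2 at 21 CPM. In nonDEN L-WD, replicate 2 was lowest for Scap at 54.8 CPM and highest for Stard4 at 133 CPM.

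The change with WD differed between uninjected and DEN mice for 2 members by edgeR's interaction term, Acat2 by -0.88 (adjusted p = 0.0445) and Mylip by 0.67 (adjusted p = 0.0406). Peritumoral liver stood for the liver of DEN mice on WD, so tissue kind is part of this term. Over all genes 8.39% passed this test, so 2 of 26 is near the background, and Acat2 was lost in 14 and Mylip in 10 of 19 fits that left out 1 library. Acat2 shares much of its sequence with Acat3.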

How the results depend on the processing

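No alternative fit to the counts reversed the sign of a called change, and of 96 calls (a gene in a comparison) 64 held when each library was left out in turn and 56 under every alternative named in the methods other than the 2 added ones. With 1 library left out, the number of members that passed ranged from 3 to 7 for WD without DEN, 3 to 6 for DEN on CD, 2 to 9 for DEN on CD against WD alone, 1 to 4 for peritumoral liver against nonDEN L-WD, 8 to 14 against DEN L-CD, 7 to 12 against nonDEN L-CD, 14 to 20 for tumor against DEN PT-WD, 15 to 20 against nonDEN L-WD, 6 to 10 against DEN L-CD, 8 to 16 against nonDEN L-CD and 0 to 3 for the interaction. The calls over all genes in these fits, in the same order, were 1889 to 3809, 1734 to 3252, 11 to 203 and 655 to 2651. Then came 743 to 2230, 5160 to 7128, 5199 to 6408 and 6899 to 7908. The last were 6466 to 7585, 7268 to 8662 and 570 to 1640. With no filter on low counts, 5 genes passed for WD without DEN, 1 for peritumoral liver against nonDEN L-WD and 0 for the interaction (2764, 1412 and 817 of 28092 genes). DESeq2's Wald test gave 12 for DEN on CD against WD alone (347 of 28092 genes, in place of 112 of 15625). For peritumoral liver against nonDEN L-WD, that test and DESeq2's size factors each gave 4 (2551 of 28092 and 2046 of 15625 genes, in place of 1933). Without the 4 libraries high in pancreatic genes, the counts were 3 for DEN on CD, 2 for DEN on CD against WD alone, 5 for peritumoral liver against DEN L-CD and 0 for the interaction; without the 2 low in albumin they were 5 for peritumoral liver against nonDEN L-WD and 5 for the interaction. The cause was not tested.

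Replicate numbers are shared between groups, but deviations of same-numbered libraries correlated between -0.239 and 0.388, and in no comparison did every pair exceed 0.1, so the numbers were not taken to pair samples. With the replicate block, 0 members passed for DEN on CD and for peritumoral liver against nonDEN L-WD, 5 for DEN PT-WD against nonDEN L-CD, 13 for tumor against DEN L-CD and 11 for tumor against DEN PT-WD. Over all genes the block took the calls of the same fit from 3552 to 639 of 13911, 1840 to 466 of 14674, 6706 to 3836 of 14821, 6510 to 6806 of 14668 and 5176 to 3730 of 14520 in these 5 comparisons. Each library correlated best with its own number in DEN on CD alone.

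On the TPM scale the median over all tested genes lay between -0.06 and 0.33 across comparisons, and 1 call, Srebf2 in DEN PT-WD against nonDEN L-CD, had the opposite sign there. Outside tumors Mvk and Mvd, at a few CPM, rest on the fewest reads. In tumors Ggps1 had the lowest mean at 7.62 CPM, against 9.31 CPM for Mvd and 11.0 CPM for Mvk.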
